A study of Mus musculus with 24 samples.

Results

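The MAP kinase phosphatases and Sprouty inhibitors described here are 10 genes that switch growth factor and stress kinase signalling off again. They are 7 dual-specificity phosphatases, Dusp1, Dusp4, Dusp5, Dusp6, Dusp8, Dusp10, and Dusp16, and 3 Sproutys, Spry1, Spry2, and Spry4. The genes were chosen by name, with earlier results of these data known. All 10 were found among the 56941 genes listed and passed the filter on low counts that left 13315 genes to test. They were measured in engineered tissues of C2C12, mouse skeletal muscle precursors that fuse to myotubes able to contract. Every tissue, the unstimulated control included, carried ChR2::tdTomato, the blue light-gated channelrhodopsin ChR2 joined to a red fluorescent protein, and was differentiated in horse serum (10%, heat-inactivated) supplemented with IGF-1 at 50 ng/ml. In the 60-min experiment, tissues were lit daily at 1, 4, or 10 Hz, and 6 biological replicates of each frequency were compared with 6 of the control, or 24 libraries of bulk RNA in all. All of them come from 1 engineered line with no nerve, vessel, or immune cells added, which limits them as a model of exercised muscle. The question is whether training at each frequency changed the RNA of these inhibitors.

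MAP kinases are switched on when an upstream kinase phosphorylates both a threonine and a tyrosine in their activation loop, and dual-specificity phosphatases remove both phosphates. DUSP5 acts on ERK in the nucleus and DUSP6 on ERK in the cytoplasm, whereas DUSP8, DUSP10, and DUSP16 act mainly on JNK and p38, and the nuclear enzymes DUSP1 and DUSP4 act on all of these kinases. Sprouty proteins act further upstream, between receptor tyrosine kinases and the Ras to ERK cascade, and are best known as inhibitors of FGF signalling. Many of these genes are transcribed in response to the kinases that their products inhibit, and Spry1 is known in muscle for its role in the return of satellite cells to quiescence.

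In GRCm39, Dusp1 lies at chr17:26724564-26781102 (minus strand), Dusp4 at chr8:35274442-35287048 (plus), Dusp5 at chr19:53517532-53530862 (plus), Dusp6 at chr10:99086564-99103361 (plus), and Dusp8 at chr7:141633226-141649580 (minus). Dusp10 lies at chr1:183745499-183807842 (plus), Dusp16 at chr6:134692431-134784241 (minus), Spry1 at chr3:37693897-37698755 (plus) and Spry2 at chr14:106128766-106136446 (minus). The promoters of Dusp1, Dusp5, Dusp8, and Spry1, 4 of the 5 genes called higher at both 1 and 4 Hz, are shown to set side by side the starts of the genes that the results turn on. Each run is the 250 bases upstream of the start of the canonical GENCODE M39 transcript, read 5' to 3' on the strand of the gene from GRCm39. The stretches are chr17:26727494-26727743 on the minus strand, chr19:53517282-53517531 on the plus strand, chr7:141649053-141649302 on the minus strand, and chr3:37693647-37693896 on the plus strand. Capitals mark the cAMP response element TGACGTCA, its core TGACG, and the CArG box, the site of serum response factor, on either strand.
Dusp1: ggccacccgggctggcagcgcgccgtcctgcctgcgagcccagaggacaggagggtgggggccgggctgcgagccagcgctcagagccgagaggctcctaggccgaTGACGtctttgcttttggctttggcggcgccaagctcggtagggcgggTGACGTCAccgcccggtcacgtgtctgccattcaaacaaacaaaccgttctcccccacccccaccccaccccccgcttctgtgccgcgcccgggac
Dusp5: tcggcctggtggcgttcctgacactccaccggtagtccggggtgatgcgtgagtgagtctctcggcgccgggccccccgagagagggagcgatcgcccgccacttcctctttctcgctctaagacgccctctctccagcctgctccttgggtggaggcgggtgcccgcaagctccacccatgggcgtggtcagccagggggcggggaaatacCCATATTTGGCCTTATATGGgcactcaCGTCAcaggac
Dusp8: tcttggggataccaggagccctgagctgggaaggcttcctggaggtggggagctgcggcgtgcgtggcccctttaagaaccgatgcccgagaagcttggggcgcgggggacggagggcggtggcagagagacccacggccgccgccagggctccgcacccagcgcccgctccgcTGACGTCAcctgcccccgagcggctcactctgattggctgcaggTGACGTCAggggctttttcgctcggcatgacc
Spry1: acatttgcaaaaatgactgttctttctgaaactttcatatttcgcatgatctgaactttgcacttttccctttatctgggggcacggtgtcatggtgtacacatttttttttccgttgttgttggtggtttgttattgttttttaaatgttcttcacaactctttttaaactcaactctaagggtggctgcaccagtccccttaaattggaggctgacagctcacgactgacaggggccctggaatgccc
The full cAMP response element occurred 2 times upstream of Dusp8, the nearer 25 bases from the start, and 1 time upstream of Dusp1, 89 bases from the start. Of the 13300 promoters of tested genes that were searched in the same way, 2.01% held it. The core TGACG, which every full element contains on both strands, was also found upstream of Dusp4, Dusp5, and Spry2 and in 23.3% of all promoters searched. Upstream of Dusp5 there were 2 adjoining CArG boxes, the nearer 19 bases from the start, and 1.17% of promoters held such a box. The window of Spry1 held none of these letters, nor those of any other motif searched, which were the AP-1 site TGANTCA (5.14% of promoters), a heat shock element core GAANNTTC (5.14%), the ETS core CCGGAA (17.4%), the E-box CAGCTG (11.5%), and TATAAA (7.9%). Among the other genes, Spry4 held the ETS core and the E-box, each 1 time. These matches describe the letters of the window and are not evidence of binding.

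The libraries held 8052369 to 18159144 estimated counts, and the biological coefficient of variation over all genes was 14.8%. The tissue was as labelled: all 20 myotube markers exceeded 1 TPM in the controls, whereas the summed TPM of 7 endothelial markers stayed at or below 1.16, with Tie1 and Emcn at 0 in every library. Of 7 leukocyte markers only Cd68 exceeded 1 TPM in the controls. Their sum was 74.7 to 103 TPM in the control, 55.7 to 86.7 at 1 Hz, 56.7 to 94.3 at 4 Hz, and 60.0 to 79.2 at 10 Hz. It lay below every control in 1 Hz replicates 3 and 6 and in 4 Hz replicates 1, 3, 5, and 6. So did 10 Hz replicates 1, 2, and 6. Markers of neurons and glia summed to at most 2.36 TPM. The 7 fat cell markers, of which only Pparg exceeded 1 TPM in the controls, summed to 11.3 to 19.9 TPM in the control, 14.95 to 23.9 at 1 Hz (4 libraries above every control), 11.99 to 24.1 at 4 Hz (3 above), and 12.8 to 21.5 at 10 Hz (2 above). The myotube markers summed to 20427 to 25496 TPM in the control, 15151 to 23144 at 1 Hz (2 libraries below every control), 18688 to 22798 at 4 Hz (1 below), and 18709 to 21626 at 10 Hz (5 below). The summed TPM of 11 markers of dividing cells was 134 to 169 in the control, 118 to 144 at 1 Hz, 92.0 to 124 at 4 Hz, and 137 to 163 at 10 Hz, so the 4 Hz libraries all lay below the controls. On the TPM scale the median of all genes was also lower at 4 Hz, by a log2 difference of -0.21 in limma on log2(TPM + 1). The 12 markers of undifferentiated myoblasts and reserve cells, of which Spry1 is 1, summed to 629 to 737 TPM in the control, 497 to 728 at 1 Hz, 500.5 to 692 at 4 Hz, and 620 to 706 at 10 Hz. They lay below every control in 1 Hz replicates 4 and 6 and in 4 Hz replicates 1, 3, 4, and 6, and in 10 Hz replicate 5. In bulk tissue, fewer cells of a type and less RNA per cell cannot be told apart. Transcripts without a poly(A) tail summed to 553 TPM in 1 Hz replicate 4 and to 718 TPM in 4 Hz replicate 4, against at most 484 TPM in any other library. The labels say that low-input samples were ribodepleted in place of poly(A) selection, without naming them. Without these 2 libraries, edgeR no longer called Dusp5 at 1 Hz (adjusted p = 0.114) or Dusp1 and Dusp6 at 4 Hz (0.0658 and 0.0805). Their log2 fold changes were then 0.74, 0.29, and 0.35, against 0.89, 0.38, and 0.38 with all libraries. For 10 against 1 Hz, Dusp1 and Dusp5 were no longer called (edgeR adjusted p = 0.0727 and 0.0743), and Dusp16 passed (0.0275). Those log2 fold changes were -0.32, -0.91, and -0.30, against -0.41, -1.06, and -0.25 with all libraries. The part of these cell types and of RNA input in the results was not tested.

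In the unstimulated tissue, levels per transcript length (TPM) placed 8 of the genes between 14.7 and 49.4 TPM and 2 Sproutys far below. Dusp1, the broadest of the phosphatases, was highest at 49.4 ± 6.82 TPM (SD, n = 6), followed by Dusp10 at 42.1 ± 4.13, Dusp4 at 38.5 ± 7.95, and Spry2 at 29.2 ± 3.73. Then came Dusp5 at 23.6 ± 9.89, Dusp6 at 21.1 ± 3.51, Dusp8 at 15.2 ± 0.772, and Dusp16 at 14.7 ± 0.577. Spry4 stood at 2.01 ± 0.248 TPM and Spry1 at 1.88 ± 0.206. Each gene overlapped the next in this order over the 6 libraries, except that all values of Dusp16 lay above all values of Spry4. Spry2 was thus the highest by RNA of the 3 Sproutys described here. At 4 Hz, mean Spry1 was 3.77 TPM and mean Spry4 1.24 TPM, so the order of the last 2 genes was turned around. By its mean of 40.8 TPM, Dusp5 had moved up from place 5 to place 3. Its libraries there (26.6 to 55.4 TPM) overlapped those of Dusp4 in place 4 (30.4 to 47.2 TPM).

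Spry1, Dusp5, and Dusp8 showed the largest rises at both 1 and 4 Hz, Dusp1 and Dusp16 rose at both by less, Dusp6 and Dusp10 passed the test at 4 Hz, and at 10 Hz no gene of the 10 passed. In edgeR's quasi-likelihood test on counts scaled to each library's effective size (CPM), 5 of the 10 genes were higher at 1 Hz at an adjusted p under 0.05 and 0 were lower, where 37.3% of all genes tested were called, 19.2% as higher. At 4 Hz, 7 of 10 were higher and 0 lower, where 51.4% of all genes were called, 27.5% as higher. With an absolute log2 fold change over 0.5 as well, 3 genes were left at each frequency, Dusp5, Dusp8, and Spry1, against 14.9% of all genes at 1 Hz and 25.1% at 4 Hz. An unadjusted p under 0.05 was reached by 5 of 10 at 1 Hz and 8 of 10 at 4 Hz, against 46.9% and 57.2% of all genes. The median log2 fold change of the 10 genes was 0.35 at 1 Hz and 0.38 at 4 Hz, and that of all genes tested 0.04 and 0.06. At 10 Hz, 0 of 10 were called and 0 had an unadjusted p under 0.05, where 0.0376% of all genes were called (0.0150% as higher, 0.0225% as lower) and 8.07% had such a p. The groups overlapped there for all 10, and 1.64% of all genes did not overlap. Their median there was 0.07, against 0.01 for all genes. By the Wald test of DESeq2, also, 0 of 10 were called at 10 Hz, where it called 0.360% of all genes. The plot of levels by library shows every value, and the plot of differences shows each interval.

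**Figure D1:**
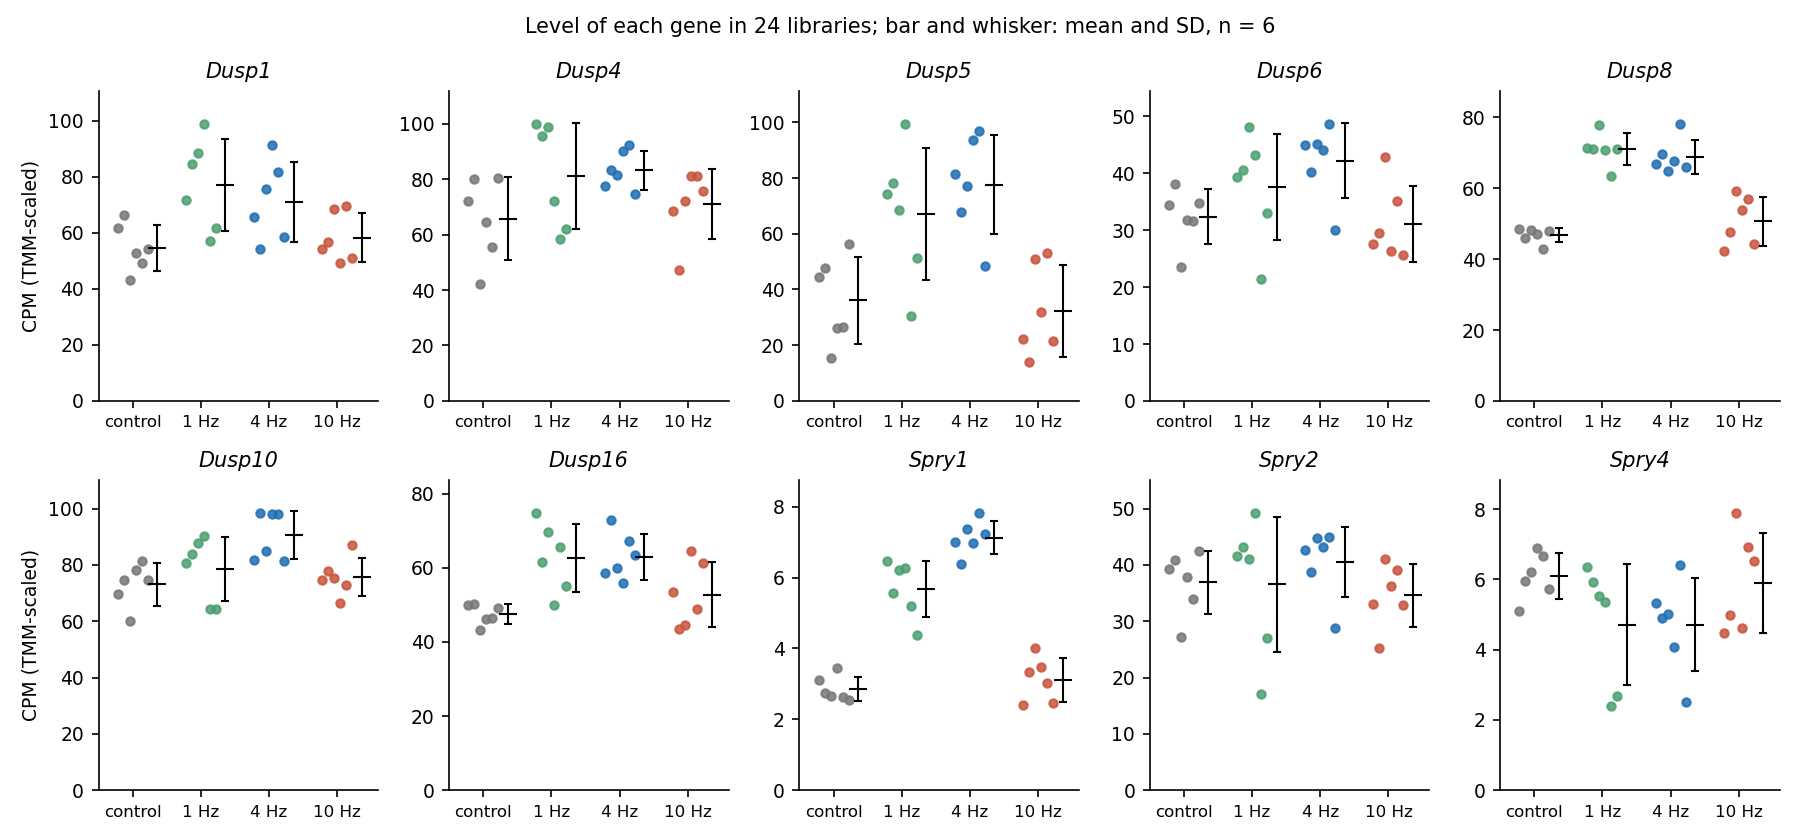
Level of each of the 10 genes in CPM with TMM factors (vertical axis, from 0) in the control and at 1, 4, and 10 Hz (horizontal axis), 1 point per library, with the mean and SD of 6 libraries beside the points. Spry1 at 1 and 4 Hz (4.39 to 7.82 CPM) lies above all control libraries (2.54 to 3.45 CPM), Dusp8 likewise, while Dusp5 spreads widely within every group.

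**Figure D2:**
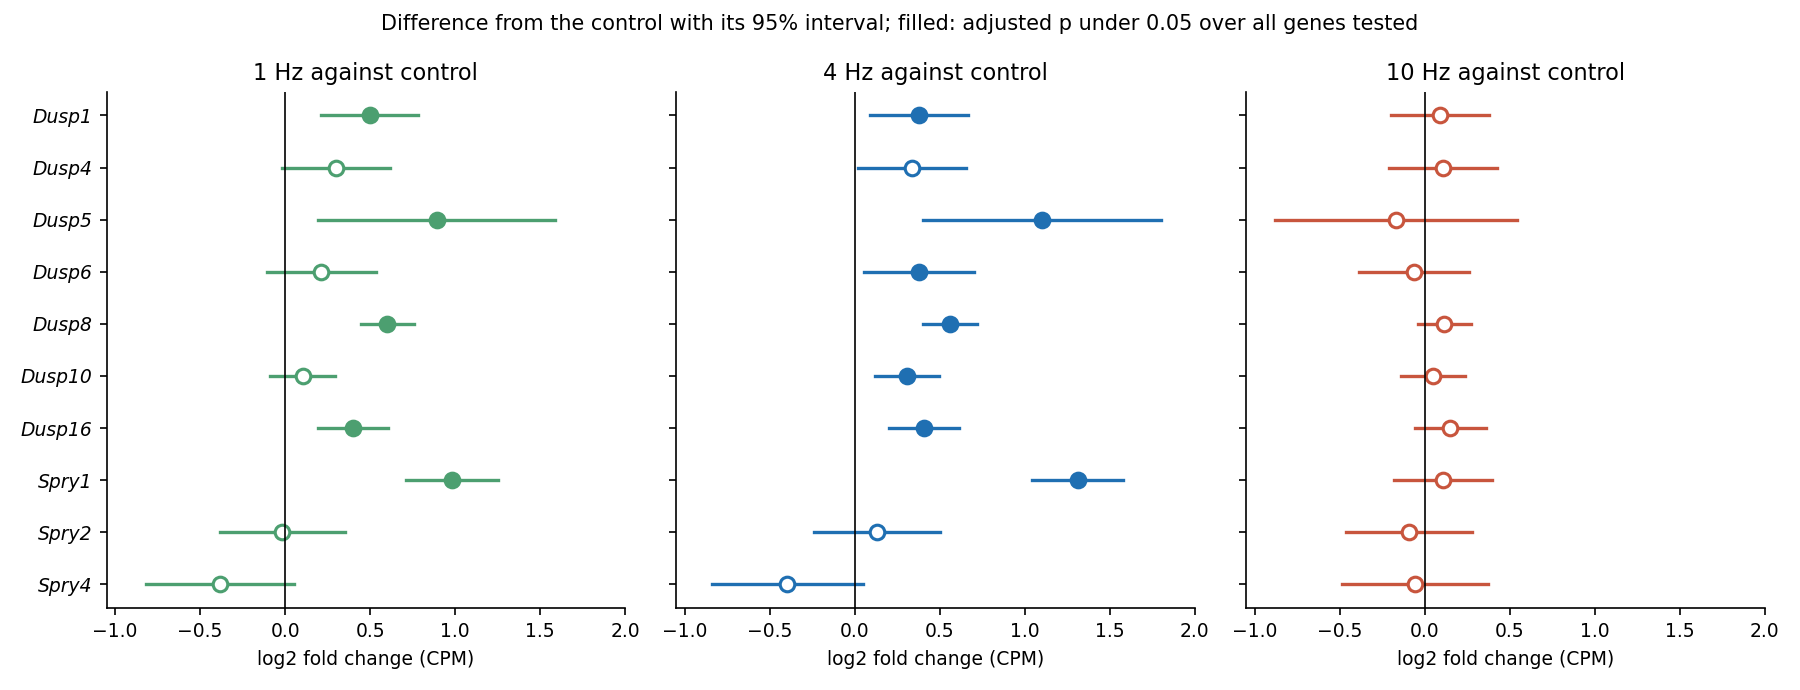
Log2 fold change of CPM against the control (horizontal axis) for each gene at 1, 4, and 10 Hz, with its 95% interval from edgeR, filled where the adjusted p over all genes tested was under 0.05. Filled points number 5 at 1 Hz, 7 at 4 Hz, and 0 at 10 Hz, and only Spry4 has a negative value at all 3 frequencies.

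Among the Sproutys, Spry1 rose at 1 and 4 Hz, and Spry2 and Spry4 did not pass the test. Spry1 stood between 2.54 and 3.45 CPM in the control (median 2.70), between 4.39 and 6.47 at 1 Hz (median 5.87), between 6.39 and 7.82 at 4 Hz (median 7.11), and between 2.39 and 4.00 at 10 Hz (median 3.17). No library at 1 or 4 Hz overlapped a control or a 10 Hz library. Spry1 was 1.98-fold higher at 1 Hz (log2 fold change 0.98 ± 0.13 SE, edgeR adjusted p = 3.10e-06) and 2.48-fold higher at 4 Hz (1.31 ± 0.13, adjusted p = 2.22e-08), the smallest adjusted p of the 10 genes at 4 Hz. Its values rest on few reads, 27 to 103 estimated counts per library in Spry1 and 27 to 108 in Spry4. Over the fit and all alternatives tried, 24 settings in all, it was called higher at both frequencies, from 0.56 to 1.03 at 1 Hz and from 0.72 to 1.36 at 4 Hz on the log2 scale. Between 1 and 4 Hz, 5 of the 6 libraries at 4 Hz lay above all of those at 1 Hz, but the difference of 0.33 ± 0.12 had an adjusted p of 0.388 and did not pass.

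Spry4, the Sprouty known as a feedback inhibitor of FGF and VEGF receptors, was the only gene of the 10 with a negative log2 fold change at all 3 frequencies, and none of these passed. It stood between 5.11 and 6.90 CPM in the control (median 6.08), between 2.41 and 6.36 at 1 Hz (median 5.45), between 2.51 and 6.42 at 4 Hz (median 4.95), and between 4.46 and 7.89 at 10 Hz (median 5.75). The groups overlapped, and 1 Hz replicates 5 and 6 and 4 Hz replicate 6 held the low values, 2.41, 2.68, and 2.51 CPM. The differences of -0.38 ± 0.21 at 1 Hz and -0.40 ± 0.22 at 4 Hz did not pass (edgeR adjusted p = 0.154 and 0.126). At 4 Hz it was lower in limma on log2(TPM + 1) (-0.44, adjusted p = 0.0221) and with only both groups in the fit (adjusted p = 0.0408). Spry2, the most abundant of Spry1, Spry2, and Spry4, did not pass at any frequency, with differences of -0.02 ± 0.18, 0.13 ± 0.18, and -0.09 ± 0.18 at 1, 4, and 10 Hz and intervals from -0.46 to 0.50 over these. The same 3 libraries were lowest within their groups, with 17.1 and 27.0 CPM at 1 Hz and 28.7 CPM at 4 Hz, against 27.2 to 42.5 in the control (median 38.6).

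Because a ratio of 2 genes within a library does not depend on the library's total, 3 such ratios were compared by a two-sided exact permutation test, 9 tests in all, whose smallest possible p is 0.00216. The log2 ratio of Spry4 to Spry1 was 1.09 ± 0.215 in the control (SD, n = 6; 0.71 to 1.34), -0.35 ± 0.453 at 1 Hz (-1.09 to 0.10), -0.65 ± 0.456 at 4 Hz (-1.51 to -0.28), and 0.90 ± 0.370 at 10 Hz (0.40 to 1.39). Every library at 1 and 4 Hz lay below every control and every library at 10 Hz. On the geometric mean, counts of Spry4 were thus 2.12 times those of Spry1 in the control and 0.639 times at 4 Hz. The difference was -1.44 at 1 Hz and -1.73 at 4 Hz, each with an exact permutation p of 0.00216 (adjusted over the 9 tests, 0.00974), and -0.18 at 10 Hz (exact p = 0.307, adjusted 0.461). The ratios of Dusp6 to Dusp4 and of Dusp16 to Dusp10 did not pass at any frequency by this test, with adjusted p values of 0.201 to 0.913. The closest was Dusp16 to Dusp10 at 1 Hz, a difference of 0.29 (exact p = 0.0671, adjusted 0.201), which passed only without 1 Hz replicate 4 (adjusted exact p = 0.00649).

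**Figure D3:**
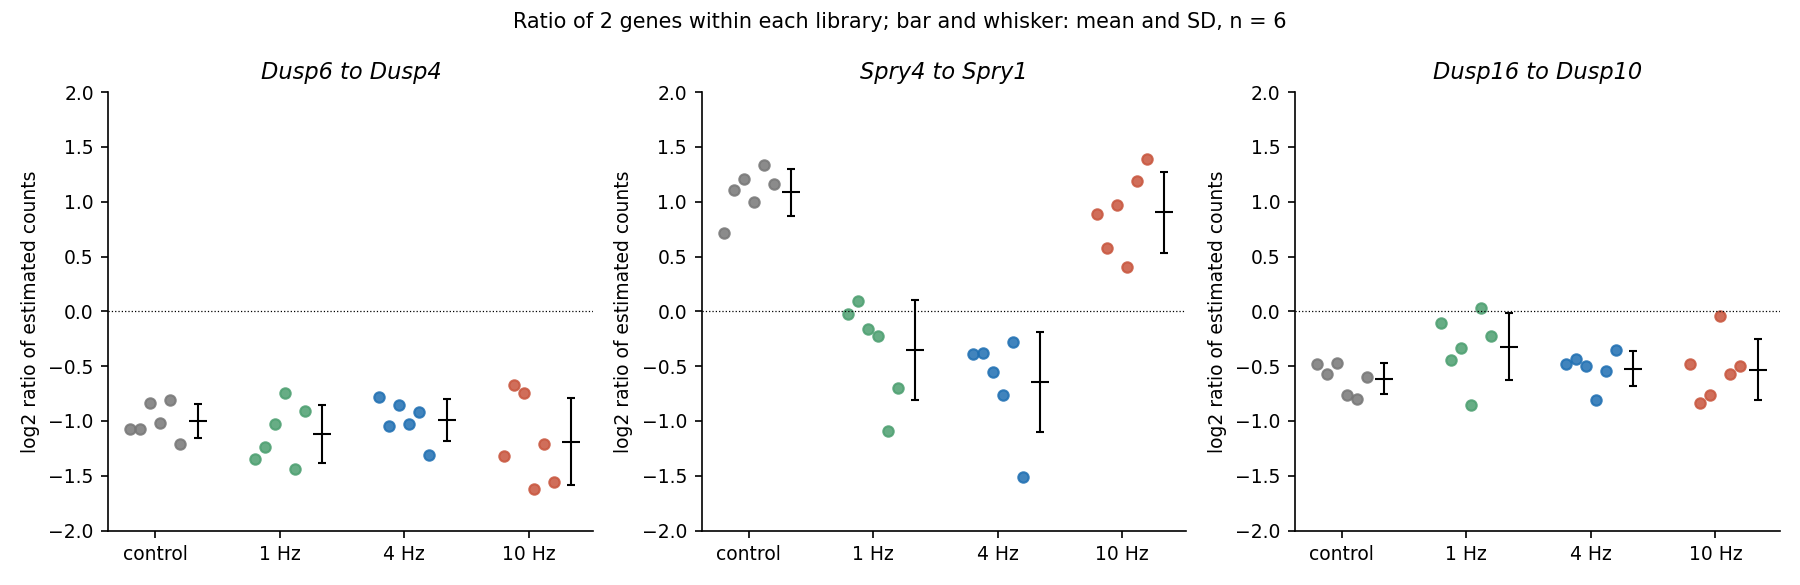
Log2 ratio of the estimated counts of 2 genes within each library (vertical axis) in the 4 groups (horizontal axis), 1 point per library with mean and SD of 6. The Spry4 to Spry1 ratio is 0.71 to 1.34 in the controls and at or below 0.10 in all libraries at 1 and 4 Hz, and the other 2 ratios overlap between all groups.

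Of the JNK and p38 phosphatases, Dusp8 rose most. Dusp8 stood between 43.0 and 48.5 CPM in the control (median 47.5), between 63.6 and 77.8 at 1 Hz (median 71.2), between 64.9 and 78.2 at 4 Hz (median 67.4), and between 42.4 and 59.1 at 10 Hz (median 50.7). The groups at 1 and 4 Hz overlapped neither the control nor 10 Hz. It was 1.52-fold higher at 1 Hz (0.60 ± 0.08, edgeR adjusted p = 1.77e-06) and 1.47-fold higher at 4 Hz (0.56 ± 0.08, adjusted p = 2.10e-06). Together with Spry1 it was 1 of 2 of the 10 genes whose groups did not overlap at 1 Hz, where 14.1% of all genes did so, and 1 of 4 at 4 Hz, where the share of all genes was 27.6%. Dusp16 stood between 43.3 and 50.2 CPM in the control (median 47.9), between 50.1 and 74.8 at 1 Hz (median 63.6), and between 55.8 and 72.8 at 4 Hz (median 61.8). It was 1.32-fold higher at 1 Hz (0.40 ± 0.10, adjusted p = 0.00328) and 1.33-fold higher at 4 Hz (0.41 ± 0.10, adjusted p = 0.00169), where every library lay above the controls. Dusp10 rose at 4 Hz by 0.31 ± 0.09 (adjusted p = 0.00719), from 60.0 to 81.3 CPM in the control (median 74.6) to 81.5 to 98.4 at 4 Hz (median 91.5), groups that come within 1 CPM of each other. At 1 Hz its difference was 0.10 ± 0.09 (adjusted p = 0.395), and the difference between 4 and 1 Hz of 0.21 ± 0.09 did not pass (adjusted p = 0.428).

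Dusp1, an immediate early gene as well as a phosphatase of all MAP kinases, stood between 43.3 and 66.5 CPM in the control (median 53.5), between 57.2 and 99.0 at 1 Hz (median 78.3), between 54.2 and 91.4 at 4 Hz (median 70.6), and between 49.4 and 69.6 at 10 Hz (median 55.4). All groups overlapped the control, and 4 libraries at 1 Hz and 3 at 4 Hz lay above it. It was 1.41-fold higher at 1 Hz (0.50 ± 0.14, edgeR adjusted p = 0.00703) and 1.30-fold higher at 4 Hz (0.38 ± 0.14, adjusted p = 0.0261). The call at 4 Hz was lost without control replicate 3, 4, or 5 or 4 Hz replicate 3, 4, or 5 (adjusted p = 0.0519 to 0.110), and also with no filter on low counts (0.0827).

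Dusp4, Dusp5, and Dusp6 varied more from library to library than Dusp8, Dusp10, and Dusp16. Dusp5, the nuclear enzyme, stood between 15.5 and 56.2 CPM in the control (median 35.6), between 30.6 and 99.5 at 1 Hz (median 71.3), between 48.5 and 96.9 at 4 Hz (median 79.3), and between 13.8 and 53.2 at 10 Hz (median 27.1). It overlapped the control in each group, by 1 library at 4 Hz and by 2 at 1 Hz. Its fold changes were the largest among the 7 phosphatases chosen, 1.85-fold at 1 Hz (0.89 ± 0.34, edgeR adjusted p = 0.0427) and 2.14-fold at 4 Hz (1.10 ± 0.34, adjusted p = 0.0102). The call at 1 Hz was lost without any 1 of control replicates 3, 4, and 5 or of 1 Hz replicates 1, 2, 3, and 4 (adjusted p = 0.0636 to 0.121), and also with no filter on low counts (0.104). The call at 4 Hz held without any 1 library, and was lost without the 5 libraries described below in which TPM and CPM differ most (0.94 ± 0.44, adjusted p = 0.106).

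Dusp6, the cytoplasmic ERK phosphatase, stood between 23.6 and 38.1 CPM in the control (median 33.1), between 21.5 and 48.2 at 1 Hz (median 39.9), between 30.0 and 48.7 at 4 Hz (median 44.5), and between 25.7 and 42.9 at 10 Hz (median 28.5). It passed at 4 Hz, by 0.38 ± 0.16 (1.30-fold, edgeR adjusted p = 0.0478), but only just. The call was lost without control replicate 1, 3, 4, 5, or 6 or 4 Hz replicate 1, 2, 3, 4, or 5 (adjusted p = 0.0537 to 0.137). It was also lost with RLE factors (0.0601), with no filter (0.146), and in DESeq2 (0.05002). At 1 Hz the difference was 0.21 ± 0.16 (adjusted p = 0.291). Dusp4, a nuclear phosphatase, did not pass, with 42.2 to 80.5 CPM in the control (median 68.3), 58.4 to 100 at 1 Hz (median 83.9), and 74.5 to 92.2 at 4 Hz (median 82.3). Its differences were 0.30 ± 0.15 at 1 Hz and 0.34 ± 0.15 at 4 Hz, with edgeR adjusted p values of 0.125 and 0.0690. Leaving out 1 Hz replicate 5 made it pass at 1 Hz (adjusted p = 0.0485). Leaving out control replicate 2 or 6 did so at 4 Hz (0.0411 and 0.0403), as did upper-quartile factors (0.0484) and a fit of only both groups (0.0458).

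At 10 Hz the 10 genes stood near the control, with log2 fold changes from -0.17 (Dusp5) to 0.15 (Dusp16). The intervals bound what these libraries could have missed: Dusp8 from -0.04 to 0.27, Spry1 from -0.18 to 0.39, and Dusp5 from -0.88 to 0.54. Against 1 Hz, 10 Hz was lower for 4 of 10 genes and higher for 0, where 27.9% of all genes were called and 13.1% as lower. These were Spry1 (-0.88 ± 0.13, edgeR adjusted p = 3.64e-05), Dusp8 (-0.49 ± 0.08, 5.20e-05), Dusp5 (-1.06 ± 0.34, 0.0258), and Dusp1 (-0.41 ± 0.14, 0.0314). With Dusp16 (-0.25 ± 0.10, 0.0672), 5 genes had an unadjusted p under 0.05, against 40.6% of all genes. The call of Dusp1 was lost without 1 Hz replicate 2, 3, or 4 or 10 Hz replicate 1, 2, 4, or 6 (adjusted p = 0.0552 to 0.108), and that of Dusp5 without 1 Hz replicate 4 or 10 Hz replicate 1, 2, or 6 (0.0581 to 0.0763). With no filter both were lost (edgeR adjusted p = 0.0734 and 0.0607). Leaving out 10 Hz replicate 1, 2, or 6 each left 2 genes (share of all genes not computed). In the other direction, Dusp6 passed without 1 Hz replicate 5 (adjusted p = 0.0291) and Dusp16 without 1 Hz replicate 4 or 10 Hz replicate 4 (0.0387 and 0.0279) or with upper-quartile factors (0.0345).

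Against 4 Hz, 10 Hz was lower for 6 of 10 genes and higher for 0, where 46.3% of all genes were called and 24.4% as lower. Spry1 (-1.20 ± 0.13, edgeR adjusted p = 1.91e-07), Dusp8 (-0.44 ± 0.08, 6.36e-05), and Dusp5 (-1.27 ± 0.34, 0.00511) passed without any 1 library. Dusp6 (-0.44 ± 0.16, 0.0266) did not pass without 4 Hz replicate 3, 4, or 5 or 10 Hz replicate 1, 2, 4, or 6 (adjusted p = 0.0515 to 0.0767). For Dusp10 (-0.26 ± 0.09, 0.0243) these libraries were 4 Hz replicates 2, 4, and 5 and 10 Hz replicates 1, 4, and 5 (0.0530 to 0.0706). For Dusp16 (-0.26 ± 0.10, 0.0402) they were 4 Hz replicates 2, 3, 5, and 6 and 10 Hz replicates 1, 2, 3, and 5 (0.0568 to 0.164), and its call was also lost with RLE factors (0.0654), with no filter (0.125), with only both groups in the fit (0.0807), and in DESeq2 (0.0619). With no filter Dusp6 and Dusp10 were lost as well (0.0758 and 0.0808). With Dusp1 (-0.29 ± 0.14, 0.0921), 7 genes had an unadjusted p under 0.05, against 53.4% of all genes. Leaving out 4 Hz replicate 5 or 10 Hz replicate 1 each left 3 genes (share of all genes not computed), and Dusp1 passed without 4 Hz replicate 2 (adjusted p = 0.0411). Spry1 and Dusp8 were the 2 genes whose groups did not overlap, in both comparisons with 10 Hz, against 7.70% and 18.9% of all genes. Between 4 and 1 Hz, 0 of 10 genes were called by edgeR or DESeq2, where edgeR called 0% of all genes and DESeq2 0.128%. In edgeR, 2 had an unadjusted p under 0.05, Spry1 and Dusp10, against 11.0% of all genes. The comparisons share libraries (the control in 3 of them), so they are not independent of each other.

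Most of these calls were lost when the deposited TPM were tested by limma, an alternative that changes the unit, the scaling, the test, and the set of genes (13422) together. There the median of all genes moved to -0.14 at 1 Hz and -0.21 at 4 Hz, and the share of called genes that were higher went from 51.5% to 14.1% at 1 Hz and from 53.6% to 14.0% at 4 Hz. On log2(TPM + 1), limma called 2 of the 10 genes at 1 Hz, where it called 25.4% of all genes. Both were higher (Spry1, 0.56, adjusted p = 0.00168, and Dusp8, 0.39, 0.0143). At 4 Hz it called 3 of the 10 genes, where it called 41.7% of all genes. Of these 3, Spry1 (0.72, 4.57e-05) and Dusp5 (0.83, 0.0284) were higher and Spry4 was lower. Relative to the median of all genes on the same scale, the differences of Dusp8 at 4 Hz were close on both, 0.50 on CPM and 0.43 on log2(TPM + 1). Those of Spry1, a gene of a few TPM, were 1.25 on CPM, 0.93 on log2(TPM + 1), and 1.20 on log2(TPM + 0.1). Dusp10 at 4 Hz turned from 0.31 to -0.02 on log2(TPM + 1), which is 0.25 and 0.19 above the respective medians. Libraries differed in this shift: its median was -0.00 in the control, -0.12 at 1 Hz, -0.29 at 4 Hz, and 0.04 at 10 Hz on the log2 scale. In 5 libraries, 1 Hz replicates 4 and 6 and 4 Hz replicates 1, 3, and 4, it lay between -0.64 and -0.33. Without these 5, 4 genes were called at 1 Hz (Dusp1, Dusp8, Dusp16, and Spry1) and 4 at 4 Hz (Dusp8, Dusp10, Dusp16, and Spry1), all higher. The share of all genes called was not computed for this alternative, so these counts cannot be set against it. Without them, edgeR no longer called Dusp5 and Dusp6 for 10 against 4 Hz (adjusted p = 0.0690 and 0.264). Their log2 fold changes were then -1.12 and -0.32, against -1.27 and -0.44 with all libraries. For 10 against 1 Hz, Dusp1 and Dusp5 were no longer called (edgeR adjusted p = 0.0587 and 0.112), while Dusp16 passed (0.00889). Those log2 fold changes were -0.38, -0.97, and -0.37, against -0.41, -1.06, and -0.25 with all libraries. What sets the shift was not tested.

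The genes differed in how much of their spread lay between the groups. For Spry1, 90.2% of the variance of log2 CPM was between groups, and for Dusp8 84.7%, above 99.6% and 98.0% of all genes tested, whose median was 35.8%. Their biological coefficients of variation within groups were 9.10% and 9.22%. Dusp16 (52.0%), Dusp5 (51.8%), Dusp1 (40.5%), Dusp10 (38.3%), Dusp6 (28.1%), Dusp4 (22.5%), Spry4 (21.4%), and Spry2 (7.21%) followed. Dusp5 had a coefficient of variation of 40.1%, higher than 97.7% of all genes, and Spry4, Spry2, Dusp6, Dusp4, and Dusp1 lay between 16.9% and 22.9%, all above the upper quartile of 17.2% for all genes except Dusp1.

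Within groups, Dusp1, Dusp4, Dusp5, Dusp6, and Spry2 varied together to differing degrees. Once the mean of each group was removed, Pearson's r of log2 CPM over the 24 libraries was 0.87 between Dusp6 and Spry2, 0.85 between Dusp5 and Spry2, 0.81 between Dusp1 and Dusp6, 0.81 between Dusp5 and Dusp6, 0.78 between Dusp4 and Dusp5, and 0.76 between Spry2 and Spry4. The lowest values among the first named genes were 0.60 between Dusp4 and Dusp6 and 0.52 between Dusp1 and Dusp4. Spry4 was not set apart from them, with r from 0.46 (with Dusp4) to 0.76 (with Spry2). These are descriptions, with no test, and both genes of a pair share the preparation and depth of each library. Dusp16 stood outside, with r from -0.33 (with Dusp1) to 0.08 (with Dusp10) for all but Dusp4 (0.52). Dusp8 and Spry1, which followed the groups most closely (r = 0.91 over all 24 libraries), kept 0.61 once the group means were removed. In the heatmap of the libraries, control replicate 3 was the lowest control for 7 of the 10 genes, and 1 Hz replicate 5 the lowest library at 1 Hz for 8.

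**Figure D4:**
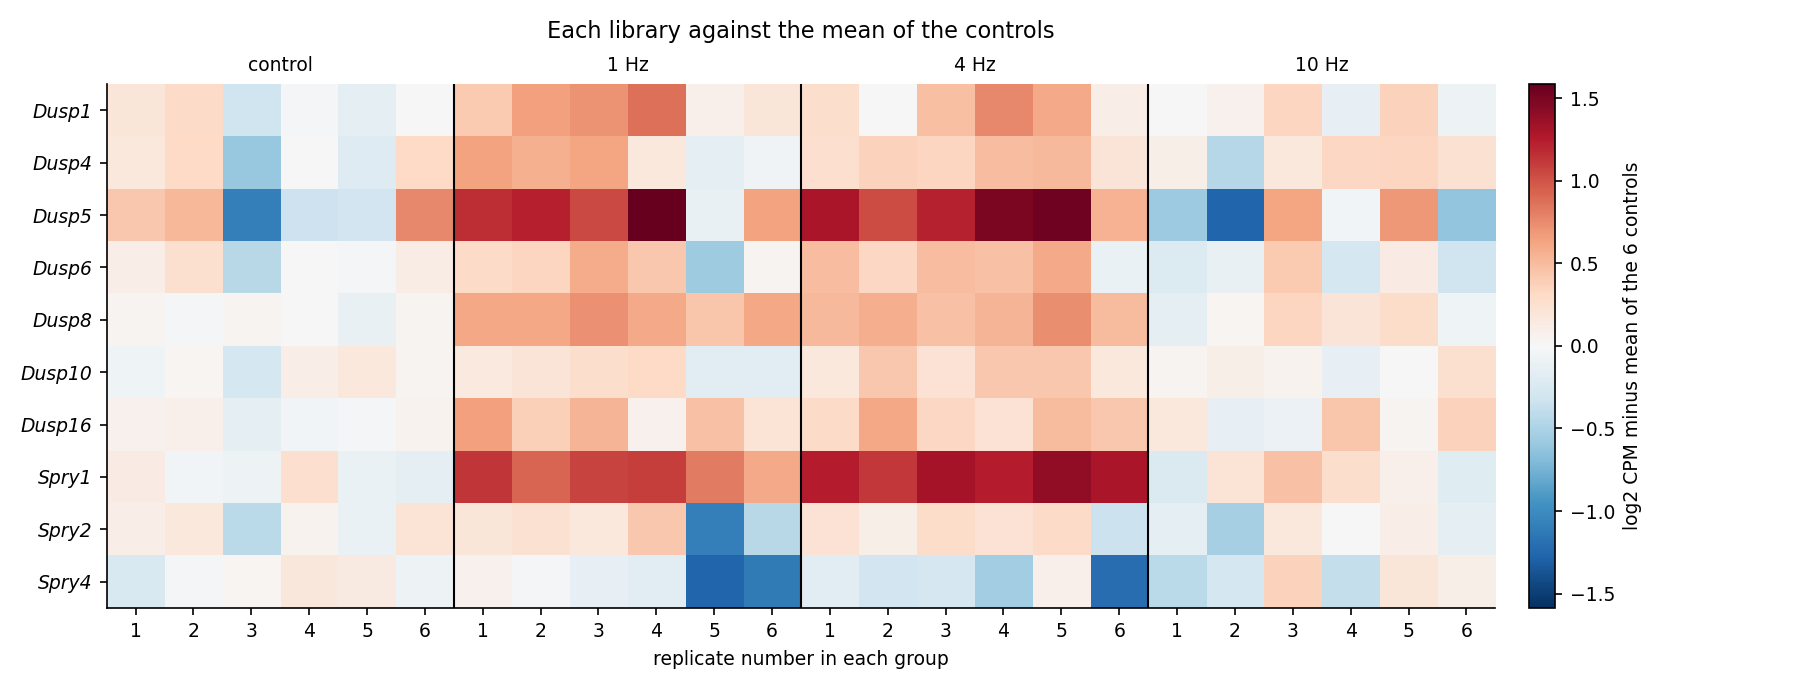
Log2 CPM of each gene (rows) in each of 24 libraries (columns, by group and replicate number) minus the mean of the 6 controls, red above and blue below. Spry1, Dusp8, and Dusp16 are red in every library at 1 and 4 Hz, whereas Spry4 and Spry2 are blue in 1 Hz replicates 5 and 6 and in 4 Hz replicate 6.

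Over the same 24 libraries, the genes whose log2 CPM was most like that of each inhibitor were also listed, with r after removal of group means in parentheses. For Dusp5 they were Ier5, an immediate early gene, at r = 0.979 (0.971), and Gem, a small GTPase that inhibits calcium channels, at 0.979 (0.979). For Spry2 they were the inducible HSP70 genes Hspa1b at 0.937 (0.937) and Hspa1a at 0.918 (0.918), near-identical copies whose reads can be exchanged. Dusp6 was closest to Rgs16 at 0.921 (0.924) and to Edn1, the endothelin-1 gene, at 0.921 (0.894). For Dusp1, Selenom stood at 0.883 (0.887), and Dusp4 was closest to Ets1, an ETS factor, at 0.886 (0.866) and to Enc1 at 0.884 (0.893). The neighbours of Spry1 were Klf7 at 0.948 (0.421) and Mmp11 at 0.945 (0.615), and those of Dusp8 were Dact1 at 0.950 (0.708) and Thap1 at 0.949 (0.678). These likenesses thus lay in part in the group means, most of all that with Klf7. Dusp16 was closest to Sp1 at 0.935 (0.886) and Itprid2 at 0.930 (0.872), Dusp10 to Ankmy2 at 0.832 (0.734) and Pltp at 0.797 (0.701), and Spry4 to Irf2bp2 at 0.783 (0.726) and Cxcr4 at 0.775 (0.712).

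The rest of the pathway was read from 7 lists. Of 22 genes known to follow ERK activity, 10 were higher and 2 lower at 1 Hz (median log2 fold change 0.55) and 13 higher and 2 lower at 4 Hz (median 0.65). Maff, a small MAF factor, rose at both frequencies (0.49 ± 0.08 and 0.68 ± 0.08, edgeR adjusted p = 2.58e-05 and 1.75e-07), and this list holds Ier5, the neighbour of Dusp5. The lower genes were Ccnd1, the cyclin D1 gene, at -0.59 ± 0.09 at 1 Hz (3.29e-05), and Fosl1, an AP-1 factor, at -0.63 ± 0.10 at 4 Hz (1.24e-05), and both genes were called lower at both frequencies.

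Among all genes tested, 19.2% were higher and 18.1% lower at 1 Hz, and 27.5% and 23.9% at 4 Hz. Of 21 ligands tested, 4 were higher and 1 lower at 1 Hz and 5 higher and 3 lower at 4 Hz. The EGF receptor ligand Areg rose by 0.92 ± 0.15 at 1 Hz and 0.88 ± 0.15 at 4 Hz (edgeR adjusted p = 2.93e-05 and 2.58e-05), while Fgf2 fell by 0.61 ± 0.20 at 1 Hz (0.0172) and Pdgfc by 0.60 ± 0.12 at 4 Hz (0.000276). Of 15 receptor tyrosine kinases, 2 were higher and 6 lower at 1 Hz and 3 higher and 5 lower at 4 Hz. Erbb2 fell by 0.82 ± 0.10 and 0.81 ± 0.10 (5.41e-07 and 3.30e-07), Fgfr2 rose at 1 Hz (0.64 ± 0.23, 0.0292), and Pdgfra rose at 4 Hz (0.36 ± 0.11, 0.00720). Of 27 genes of the Ras to ERK cascade, 4 were higher and 7 lower at 1 Hz and 5 higher and 11 lower at 4 Hz. The small GTPase gene Rras rose at 1 Hz (0.51 ± 0.09, 0.000114), the scaffold Ksr1 at 4 Hz (0.60 ± 0.10, 1.64e-05), while Map2k1, which encodes the ERK kinase MEK1, fell by 0.28 ± 0.06 at 1 Hz (0.000895) and the exchange factor Sos2 fell by 0.78 ± 0.12 at 4 Hz (5.71e-06). Of 24 genes of the JNK, p38, and ERK5 cascades, 3 were higher and 5 lower at 1 Hz and 3 higher and 7 lower at 4 Hz. Rps6ka5, the kinase MSK1, rose at 1 Hz (0.52 ± 0.13, 0.00295) and the JNK scaffold Mapk8ip3 at 4 Hz (0.45 ± 0.08, 2.85e-05), and Map3k11 fell at both (by 0.50 ± 0.07 and 0.56 ± 0.07, 7.34e-06 and 8.29e-07).

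Other MAP kinase phosphatases and their relatives, not all of which need inhibit these kinases, and other brakes on receptors and Ras moved in both directions. Of 14 other MAP kinase phosphatases and relatives tested, 1 was higher and 3 lower at 1 Hz, and 4 were higher and 4 lower at 4 Hz. Dusp2, a nuclear phosphatase, rose by 1.44 ± 0.30 at 1 Hz and 1.20 ± 0.31 at 4 Hz (edgeR adjusted p = 0.000868 and 0.00276), and Dusp9, a close relative of Dusp6, fell by 0.79 ± 0.11 and 0.65 ± 0.11 (4.14e-06 and 2.57e-05). Of 21 other brakes on receptors and Ras, 5 were higher and 4 lower at 1 Hz and 5 higher and 6 lower at 4 Hz. Errfi1, which inhibits the EGF receptor family, rose by 1.02 ± 0.12 and 1.09 ± 0.12 (5.95e-07 and 1.11e-07), and Rasa1, a GTPase-activating protein for Ras, fell by 0.63 ± 0.12 and 1.01 ± 0.12 (0.000157 and 2.38e-07). At 10 Hz, 0 genes of any of the 7 lists were called. The plot of shares sets these lists beside all genes tested.

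**Figure D5:**
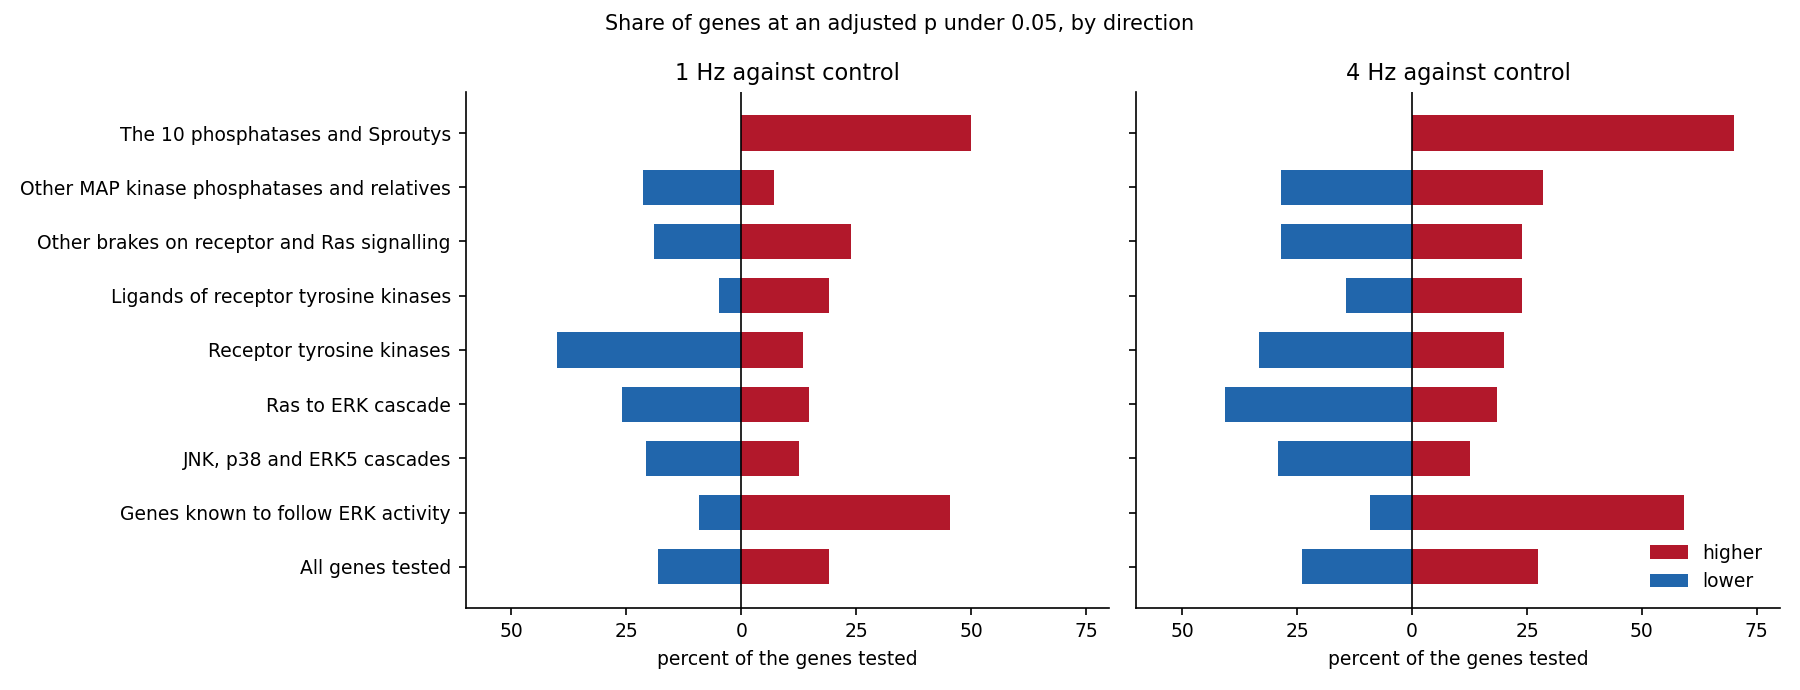
Share of the tested genes of each list at an edgeR adjusted p under 0.05 at 1 Hz and 4 Hz against the control (horizontal axis, percent; higher to the right, lower to the left). The 10 phosphatases and Sproutys have 5 and 7 genes on the right and 0 on the left, and the receptor, Ras to ERK, and JNK, p38, and ERK5 lists have more genes on the left than on the right at both frequencies.

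For 7 of the 10 genes, exons of the canonical transcript overlap exons of a gene on the opposite strand, Dusp1, Dusp4, and Spry4 being the exceptions. The libraries were made with a directional kit, per the study's methods, but whether counting used strand is not given in the sources used here, so reads of such partners may be among theirs.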

How the data were processed

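Bulk RNA from 24 libraries of the 60-min experiment was analysed. The authors deposited estimated counts per gene made with Salmon in an nf-core pipeline on GRCm39, and TPM per gene from the same run. The submitters' processing notes also name STAR, BWA 0.7.12-r1039, and bedtools 2.25.0, and strand use in counting is not given in the sources used here. Of the deposited counts, 6.15% were not whole (tolerance 0.001) and were rounded. All libraries were fitted together in edgeR 4.0.16 (R 4.3.3) with TMM factors, filterByExpr (minimum count 10, minimum total 15), and robust quasi-likelihood tests. P values were adjusted by Benjamini-Hochberg over 13315 genes, and an adjusted p under 0.05 was called. On simulated data 98.5% of 197 changed genes were recovered for 1 Hz against the control. The changes planted there were larger than most of those in the 10 genes, and every gene was given the same spread. This share therefore does not tell how often changes of the size seen here would be missed. Log2 CPM used a prior count of 2 and ratios a pseudocount of 0.5. Alternatives used DESeq2 1.42.0, limma 3.58.1 on log2(TPM + 1) or log2(TPM + 0.1), other scalings and filters, a replicate block, and omission of libraries.

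Library depth was 8052369 to 18159144 counts in total. Groups follow the labels, and the study calls the replicates biological, with the time from the last stimulation to lysis not stated. The members and lists were chosen with earlier results of these data known. Genes named from a list were, for each direction at 1 and 4 Hz, the called gene of smallest p (Ier5 was added after its values were seen), and neighbours were the 2 other genes with the highest r of log2 CPM, of which 1 is not reported here. Promoters were cut from GRCm39 with GENCODE M39, in which 98.9% of gene IDs were found.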

Additional observations from a re-analysis of the deposited data

Results flagged for a closer look

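In 52 groups of 6 libraries examined, 2 held a library whose gap to its nearest neighbour exceeded the limit of Dixon's test at 95% for its share of the group's range, and chance alone flags about 1 group in 20. For Dusp4 at 10 Hz, replicate 2 stood at a log2 CPM of 5.56, with the next library at 6.10 and the highest at 6.35, a gap of 0.686 of the range. For Spry2 at 4 Hz, replicate 6 stood at 4.85, with the next at 5.29 and the highest at 5.50, a gap of 0.675 of the range.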

How the results depend on the processing

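The rises of Spry1 at 1 and 4 Hz and of Dusp8 at 1 Hz passed under every alternative tried, and Dusp8 at 4 Hz under all but limma on TPM. Spry1 and Spry4 had the fewest counts of the 10 genes. At 10 Hz the intervals of Dusp5 (-0.88 to 0.54) and Spry4 (-0.49 to 0.37) admit changes as large as some seen at 1 Hz in the 10 genes. So do those of other genes, with upper ends of 0.42 for Dusp4, 0.39 for Spry1, and 0.38 for Dusp1. The upper ends of Dusp5 and Spry1 lie below their own rises at 1 Hz, 0.89 and 0.98. Where a value changed under an alternative, the cause was not tested.

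Limma on log2(TPM + 1) and on log2(TPM + 0.1) called equal numbers of the 10 genes. Each called 2 at 1 Hz and 3 at 4 Hz (2 higher, 1 lower). Each also called 2 for 10 against 1 Hz and 2 for 10 against 4 Hz, all as lower. On log2(TPM + 1), limma called 17.7% of all genes for 10 against 1 Hz, 87.6% of these as higher. For 10 against 4 Hz it called 38.3% of all genes, 86.8% of these as higher. With an absolute log2 fold change over 0.5 as well, edgeR called 3 of the 10 genes at 1 Hz and 3 at 4 Hz. For 10 against 1 Hz it called 2, and for 10 against 4 Hz 2. The shares of all genes in these 4 comparisons were 14.9%, 25.1%, 10.8%, and 21.2%. With no filter on low counts, Dusp5 was lost at 1 Hz and Dusp1 and Dusp6 at 4 Hz. For 10 against 1 Hz, 2 of the 10 genes were then called, and for 10 against 4 Hz 3 were. Of the 27811 genes tested without the filter, 14.1% were called at 1 Hz and 21.3% at 4 Hz. For 10 against 1 Hz the share was 9.60%, and for 10 against 4 Hz 18.7%. Without the 5 libraries of the lowest TPM-to-CPM shift, an alternative chosen after seeing the data as was leaving out the 2 libraries with the most RNA lacking a poly(A) tail, 4 of the 10 genes were called at 4 Hz. Leaving out 1 library at a time gave 2 to 5 genes for 10 against 1 Hz and 3 to 6 for 10 against 4 Hz. For fits with libraries left out, the share of all genes called was not computed.

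On log2(TPM + 1) and log2(TPM + 0.1), these log2 fold changes changed sign: Dusp10 at 1 Hz (-0.11 and -0.12) and at 4 Hz (-0.019 and -0.020), Spry2 at 4 Hz (-0.19 and -0.20), and, for 4 against 1 Hz, Dusp4 (-0.052 and -0.052) and Dusp16 (-0.11 and -0.12). For 10 against 1 Hz they were Dusp4 (0.0066 and 0.0077), Dusp10 (0.14 and 0.15), and Spry2 (0.17 and 0.18). For 10 against 4 Hz they were Dusp1 (0.033 and 0.034), Dusp4 (0.058 and 0.059), Dusp10 (0.049 and 0.050), Dusp16 (0.020 and 0.021), and Spry2 (0.079 and 0.082). The Dusp6 to Dusp4 ratio at 1 Hz was 0.13 on TPM. For 4 against 1 Hz, Dusp16 was -0.0082 with RLE factors, -0.0026 with no filter, and -0.0076 in DESeq2, and Spry2 at 1 Hz was 0.0051 with upper-quartile factors. Without the 2 libraries, edgeR no longer called Dusp5 at 1 Hz (log2 fold change 0.74, adjusted p = 0.114). At 4 Hz it no longer called Dusp1 (0.29, adjusted p = 0.0658) and Dusp6 (0.35, 0.0805). For 10 against 1 Hz it no longer called Dusp1 (-0.32, 0.0727) and Dusp5 (-0.91, 0.0743). Without these 2 libraries, Dusp4 (-0.023), Dusp16 (-0.022), and Spry4 (0.071) changed sign for 4 against 1 Hz and Spry2 (0.035) for 10 against 1 Hz. Without the 5, Dusp4 (-0.11) and Dusp16 (-0.026) did so for 4 against 1 Hz and Spry2 (-0.018) at 4 Hz.

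Leaving out 1 library at a time turned the sign of Spry2 at 1 Hz (-0.15 to 0.13) and Spry4 at 10 Hz (-0.15 to 0.019). For 4 against 1 Hz it did so for Dusp4 (-0.042 to 0.11), Dusp16 (-0.056 to 0.065), Spry2 (-0.0019 to 0.25), and Spry4 (-0.15 to 0.13), and for 10 against 1 Hz for Dusp10 (-0.10 to 0.0069) and Spry2 (-0.22 to 0.049). The Dusp6 to Dusp4 ratio at 4 Hz ran from -0.031 to 0.075, Dusp16 to Dusp10 at 10 Hz from -0.015 to 0.14, and Dusp16 to Dusp10 at 1 Hz from 0.22 to 0.40.

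With the replicate number as a block, 4 of the 10 genes were called at 1 Hz, 6 at 4 Hz, 0 at 10 Hz, 0 for 4 against 1 Hz, 3 for 10 against 1 Hz, and 5 for 10 against 4 Hz. Of all genes, 34.6% were called at 1 Hz, 49.9% at 4 Hz, 0.0225% at 10 Hz, and 0.00751% for 4 against 1 Hz. For 10 against 1 Hz the share was 24.6%, and for 10 against 4 Hz 44.2%. The calls lost were Dusp5 at 1 Hz (edgeR adjusted p = 0.0969), Dusp6 at 4 Hz (0.0686), Dusp5 for 10 against 1 Hz (0.0598), and Dusp16 for 10 against 4 Hz (0.0629). Libraries that shared a number did not deviate together: over 36 such pairs the correlation of their deviations ran from -0.33 to 0.24 with a median of -0.02, so the numbers were not taken to pair the samples.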
